A study of Mus musculus with 16 samples.

Results

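The genes described here encode the mitochondrial ribosomal proteins of the mouse. They were taken as every protein-coding gene of the deposited tables whose symbol is Mrps or Mrpl, followed by a number and at most 1 letter, which gave 78 of 49585 gene identifiers. The symbols come from GENCODE mouse release 21, matched by Ensembl identifier. All 78 had a p-value in each of 3 comparisons, and 77 an adjusted one in both knockdown comparisons: Mrpl53, with the lowest mean count, has none there.

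Mitochondria carry their own ribosome, built from RNAs of the mitochondrial genome and from proteins of nuclear genes that are made in the cytosol and imported. It translates the few mitochondrial messenger RNAs, which encode core subunits of the respiratory chain and of ATP synthase. The small subunit reads the message and the large subunit joins amino acids, and each combines proteins of bacterial ancestry with proteins found only in mitochondria. The early mouse embryo lives on mitochondria inherited from the egg, and its messenger RNAs are partly maternal and partly made by the embryo after its genome becomes active at the 2-cell stage.

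Libraries were prepared by Smart-seq2 from the polyadenylated RNA of mouse embryos at the 2-cell stage, a full-length method that keeps no strand information. There were 6 libraries from zygotes microinjected with double-stranded RNA against Suv39h2 (Suv39h2 knockdown), 6 from zygotes that received double-stranded RNA against LacZ (LacZ control), and 4 from embryos that were not injected (non-injected). LacZ is a bacterial gene, and Suv39h2 encodes a methyltransferase for lysine 9 of histone H3. All embryos had DBA fathers and F1 hybrid mothers (C57BL/6J × CBA/H) and were kept in KSOM medium. The design text gives pools of 5 embryos per library, whereas the extract protocol speaks of single embryos. The treatment protocol speaks of injecting wild-type or mutant messenger RNA of Suv39h1, and no sample's own label lists it. Nothing in the labels says whether libraries of a group came from separate litters or days, so p-values measure the spread between these libraries.

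Every fold change, standard error (SE), p-value and adjusted p below is the authors' own, from DESeq2, and a gene was counted as called when its adjusted p in the authors' deposited table was under 0.05. Log2 fold changes give the first-named group over the second, so a negative value means lower in the first. The tables hold means over libraries and no value of a single library, so depth and the spread of each gene over libraries are unknown. The SE belongs to the deposited fold change and is not that spread. It can be small for barely detected genes, as for the granulosa cell marker Fshr (0.17 for knockdown over LacZ control in the authors' deposited table, at a mean count of 0.0454). In a library made from whole embryos, fewer cells with a transcript and less of it per cell cannot be told apart.

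The targeted transcript was lower in knockdown embryos: in the authors' deposited table Suv39h2 had a log2 fold change of -1.95 ± 0.28 (SE; adjusted p = 4.72e-08) against LacZ control. The value against non-injected embryos was -1.79 ± 0.29 (adjusted p = 2.21e-06) per the authors' deposited table. All 12 markers of the 2-cell stage were detected, with mean counts from 14.0 to 2987. All 10 transcripts inherited from the oocyte were detected too, from 205 to 8077, whereas 9 of 10 markers of cumulus and granulosa cells had a mean count under 10 (1 of them at 0). Of 8 listed sperm transcripts 7 were under 10, and the exception was Odf2 at 2138. Whether the Odf2 RNA came from sperm was not tested.

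All 78 mitochondrial ribosomal protein genes were detected in 2-cell embryos. Their mean normalized counts ran from 4.18 for Mrpl53 to 989, with a median of 148, and 50 of them reached 100. Levels were compared between genes as mean count per kilobase of the longest protein-coding transcript. On that scale the 78 genes had a median level of 110 (4.28 to 907), beside 46.4 over 12449 protein-coding genes with a mean count of 10 or more. Their undivided mean counts had medians of 148 and 146, so this gap comes from the division by length. The 83 nuclear genes of oxidative phosphorylation had a median level of 142 per kilobase, and the 85 genes of the cytosolic ribosome one of 568. Small-subunit genes (median 104 per kilobase) and large-subunit genes (113) lay close together. The transcripts are short, with a median length of 1328 bases beside 3078 for those protein-coding genes.

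The highest levels belonged to large-subunit genes. Mrpl34, a small protein of bacterial ancestry, led with 907 counts per kilobase, followed by Mrpl20 with 712, which in bacteria binds the ribosomal RNA early in assembly. Mrpl40 and Mrpl41, both found only in mitochondria, had 693 and 644, and Mrpl22, which lines the tunnel through which the new peptide leaves, had 670. At the low end were Mrps5, a protein of the messenger RNA entry site, with 4.28 counts per kilobase, and Mrpl11, at the base of the stalk that receives translation factors, with 5.70. Mrpl53 had 6.02, Mrps31 had 6.61 and Mrps35 had 6.71, all 3 being mitochondria-specific proteins. Exons of Mrpl53 overlap those of Gm42688 on the same strand over 88.0% of their bases, so its level is uncertain. The spread of 1 gene's level over libraries is not given, so the order of neighbours in level was not tested.

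**Figure D1:**
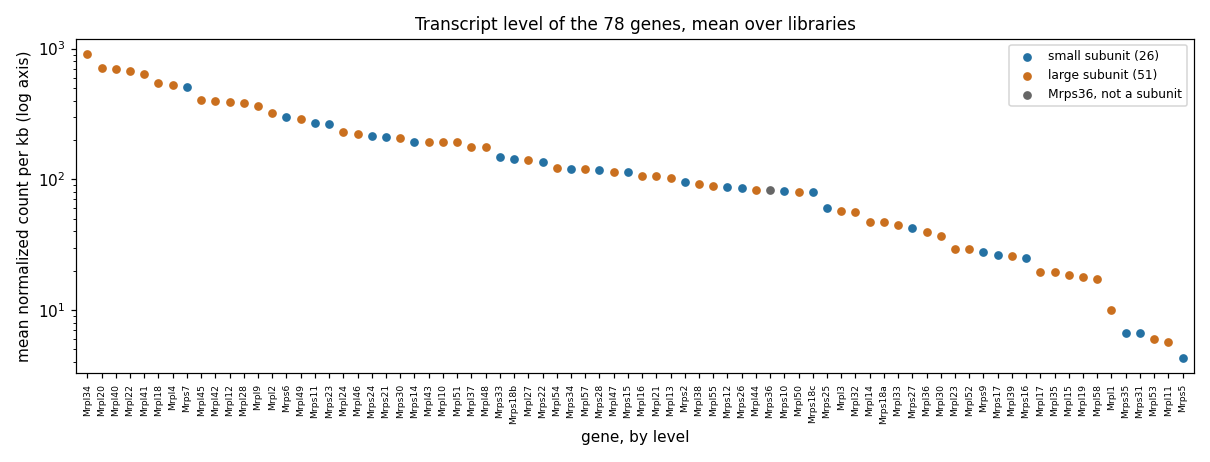
Mean normalized count per kilobase of transcript (log axis) for the 78 genes, ordered by level, with 1 point a gene coloured by ribosomal subunit. Levels run from 907 for Mrpl34 to 4.28 for Mrps5, and small-subunit and large-subunit genes are mixed along the order.

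Between Suv39h2 knockdown and LacZ control, both injected, no mitochondrial ribosomal protein gene was called by the authors' DESeq2 test. Most members had small negative values: 52 of 78 (66.7%) were below 0, and the median of the deposited log2 fold changes was -0.12, with quartiles of -0.29 and 0.05. Over all 33028 genes with a p-value the median was 0.02, and over the 7722 genes with a mean count of 100 or more it was -0.08. The share below 0 was 44.0% over the first of these sets and 58.3% over the second. The shares called over all tested genes were 0.533% lower and 0.366% higher, beside 0 of 77 members in either direction. At an unadjusted p under 0.05, 5 of the 77 members with a mean count of 10 or more were lower (6.49%) and 2 higher (2.60%), beside 8.40% lower and 6.68% higher of all genes at that level. None of the 2-cell or oocyte markers was called in this comparison, with list medians of -0.05 and 0.29. For 63 of 78 members the 95% normal interval of the log2 fold change, from its SE, lay within 1 of 0. Such intervals, here and below, rest on fold changes shrunken towards 0 and can differ from the deposited tests. For Mrpl20 the interval was -0.85 to -0.02, while the DESeq2 Wald test in the authors' deposited table gave p = 0.0562.

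Closest to a call was Mrps6, a protein of the platform of the small subunit that pairs with a relative of bacterial S18. Its log2 fold change in the authors' deposited table was -0.77 ± 0.22 (SE), a level 0.585 times that of LacZ control (adjusted p = 0.0565). It passed, with an adjusted p of 0.0435, when Benjamini-Hochberg adjustment of the p-values in the authors' deposited table was limited to genes with a mean count of 100 or more. Mrpl50, a mitochondria-specific protein of the large subunit, had -0.84 ± 0.28 (adjusted p = 0.0942) per the authors' deposited table. Mrpl11 had the lowest value in the authors' deposited table, -1.03 ± 0.35 (adjusted p = 0.153), at a mean count of 17.4. Mrps35, a mitochondria-specific protein of the small subunit, had the highest, 1.07 ± 0.35 (adjusted p = 0.0878) per the authors' deposited table, at a mean count of 27.9. So the largest differences in both directions came from weakly detected genes, for which the interval is wide: 0.39 to 1.75 for Mrps35 and -1.71 to -0.35 for Mrpl11 in log2 terms.

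Other members with the smallest p-values also missed the threshold. Mrpl49, mitochondria-specific and well detected (mean count 510), had a log2 fold change of -0.61 ± 0.24 (adjusted p = 0.197) per the authors' deposited table. Mrpl17, of bacterial ancestry, had -0.74 ± 0.32 (adjusted p = 0.234), and Mrpl20 had -0.43 ± 0.21 (adjusted p = 0.358) in the authors' deposited table. Mrpl58, an enzyme built into the large subunit that can release stalled peptides, had -0.73 ± 0.37 (adjusted p = 0.349) per the authors' deposited table. Mrpl39, near the exit tunnel, had -0.71 ± 0.37 there (adjusted p = 0.364, authors' deposited table). Mrps27, an RNA-binding protein of the small subunit, stood on the other side at 0.56 ± 0.26 (adjusted p = 0.286) per the authors' deposited table, as did Mrps5 at 0.62 ± 0.40.

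**Figure D2:**
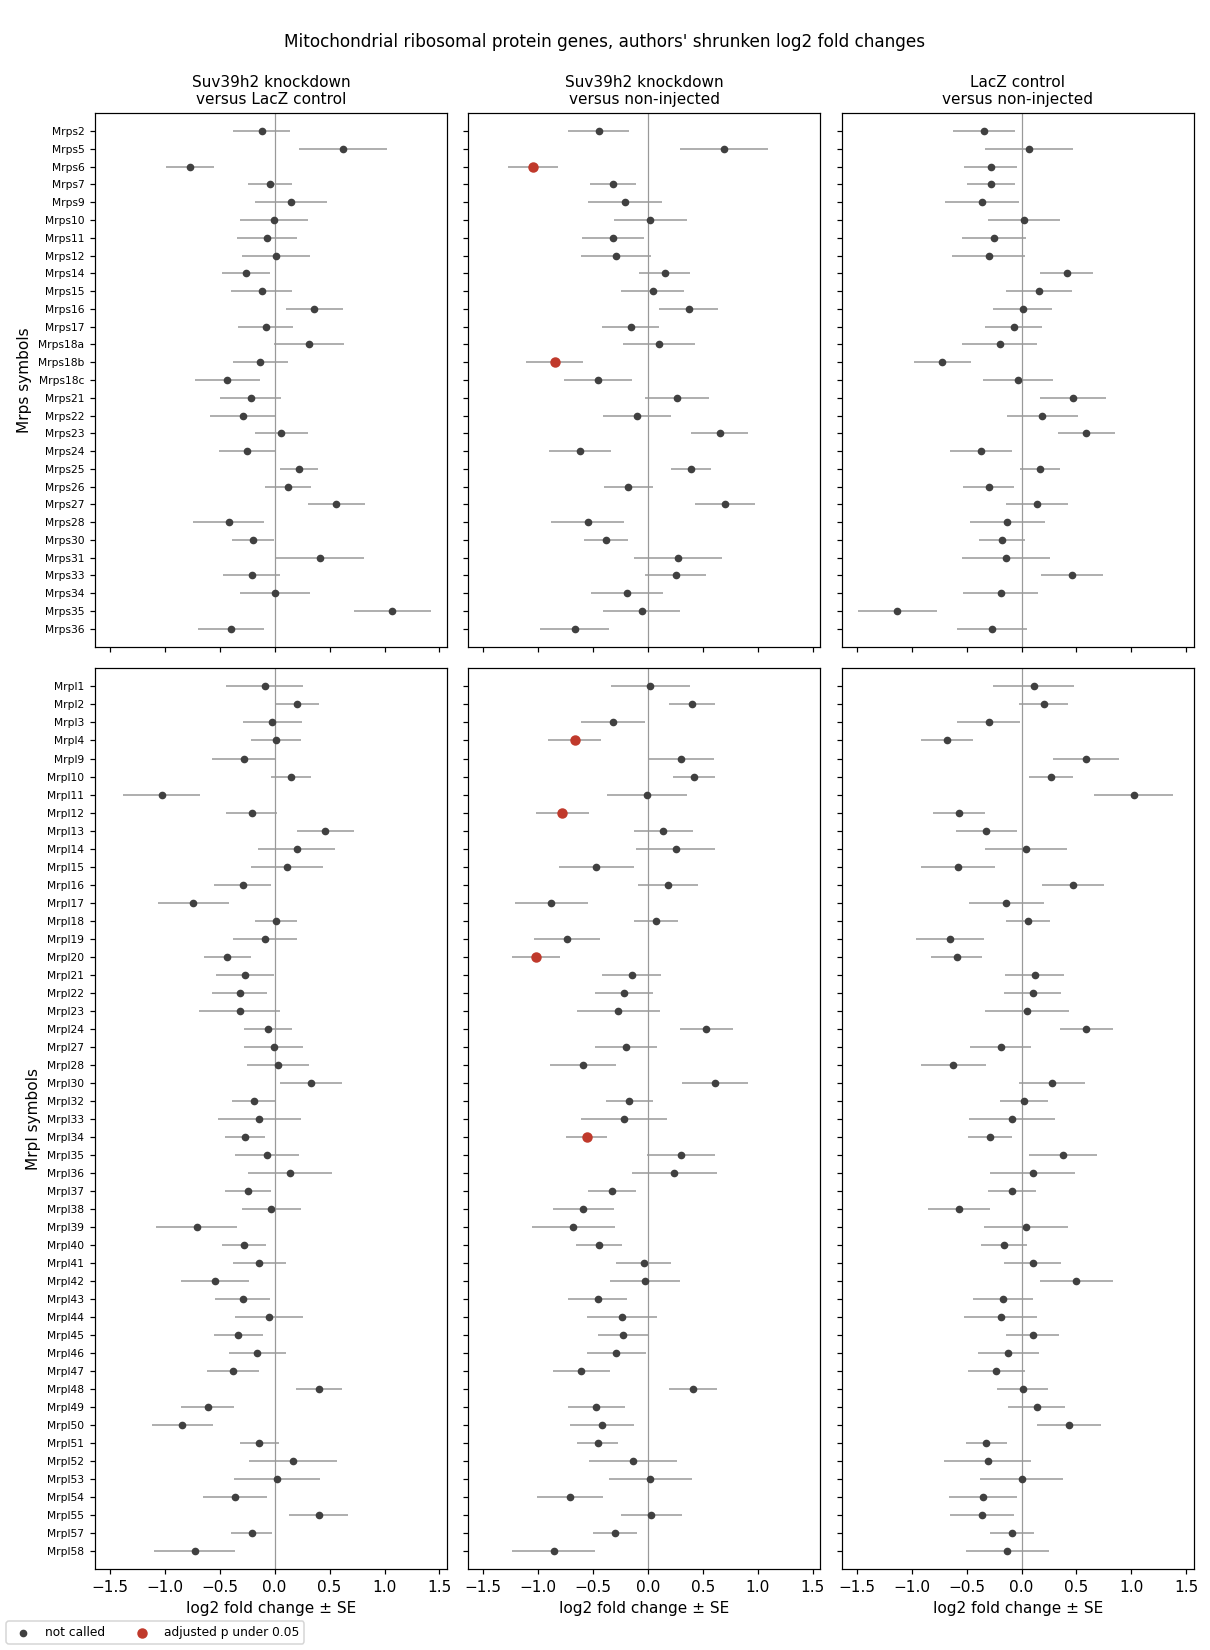
Log2 fold change (x axis, point) with its standard error (bar) for each of the 78 genes in the 3 comparisons, Mrps symbols above and Mrpl symbols below. Red points mark the 6 genes with an adjusted p under 0.05, all in Suv39h2 knockdown versus non-injected and all left of 0.

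Between Suv39h2 knockdown and non-injected embryos, 6 of 77 members fell and none rose. The 6 were Mrps6, Mrpl20, Mrps18b, Mrpl12, Mrpl4 and Mrpl34, at 0.483 to 0.680 times the non-injected level. The share that fell, 7.79%, was near the 7.76% of all tested genes called lower in this comparison, so the count says nothing particular about these genes; 7.41% of all genes were called higher, beside 0 of the 77 members. The median over the 78 log2 fold changes was -0.21, with quartiles of -0.46 and 0.13, and 51 (65.4%) were negative. The median was 0.03 over all genes with a p-value and -0.08 over those with a mean count of 100 or more, with 42.0% and 55.3% below 0. Members with a mean count of 100 or more had a median of -0.24, with 36 of 50 (72.0%) below 0. Members under 100 had a median of -0.03. At an unadjusted p under 0.05, 16 members were lower (20.8%) and 6 higher (7.79%), beside 14.5% and 14.7% of all genes with a mean count of 10 or more. These values compare injected with uninjected embryos, so injection and knockdown cannot be told apart in them.

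Mrps6 (ENSMUSG00000039680.9, GRCm38 chromosome 16, 92058270 to 92112227, plus strand) had the largest fall. Its log2 fold change in the authors' deposited table was -1.05 ± 0.23 (SE; adjusted p = 0.000676), a level 0.483 times that of non-injected embryos. Mrpl20 (ENSMUSG00000029066.12, chromosome 4, 155802878 to 155809975, plus strand) fell by 1.02 ± 0.22 in log2 terms (adjusted p = 0.000579) per the authors' deposited table. These were the only members whose adjusted p was also under 0.01.

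Mrps18b (ENSMUSG00000024436.16, chromosome 17, 35910379 to 35916389, minus strand), 1 of 3 mammalian relatives of bacterial S18, fell by 0.85 ± 0.26 (adjusted p = 0.0137) per the authors' deposited table. Mrpl12 (ENSMUSG00000039640.7, chromosome 11, 120484613 to 120489065, plus strand) forms the stalk that recruits translation factors, and it fell by 0.78 ± 0.24 (adjusted p = 0.0157) per the authors' deposited table. Mrpl4 (ENSMUSG00000003299.10, chromosome 9, 21002738 to 21008839, plus strand), which reaches into the wall of the exit tunnel, fell by 0.67 ± 0.24 (adjusted p = 0.0371) per the authors' deposited table. Mrpl34 (ENSMUSG00000034880.7, chromosome 8, 71464959 to 71465747, plus strand), the gene with the highest level per kilobase, fell by 0.56 ± 0.19 (adjusted p = 0.0330) per the authors' deposited table. All 6 had mean counts of 155 or more and belong to families shared with bacteria. Exons of Mrps18b overlap the antisense gene Gm16279 over 30.5% of their bases, those of Mrpl12 overlap Gm16755 over 13.1%, and those of Mrps6 overlap Slc5a3 and Gm49711 on the same strand over 10.4% and 19.9%, so reads there cannot be assigned to 1 gene with certainty; Mrpl20, Mrpl4 and Mrpl34 had no such overlap.

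Just outside the threshold, Mrpl17 had a log2 fold change of -0.88 ± 0.33 (adjusted p = 0.0511) per the authors' deposited table. On the positive side Mrps23, a mitochondria-specific protein of the small subunit, had 0.65 ± 0.26 (adjusted p = 0.0529) per the authors' deposited table. Mrps27 had 0.70 ± 0.27 (adjusted p = 0.0673) and Mrpl51, a mitochondria-specific protein of the large subunit, had -0.46 ± 0.19 (adjusted p = 0.0770) in the authors' deposited table. Mrps5 had 0.69 ± 0.40 (adjusted p = 0.351) per the authors' deposited table. For 54 of 78 members the 95% interval lay within 1 of 0.

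Transcripts inherited from the oocyte were called in the same comparison, in which 7.41% of all tested genes were called higher. Of the 10 listed, Zp2, Gdf9, Bmp15, Zar1 and Oosp1 were called higher in Suv39h2 knockdown than in non-injected embryos, and the median of the list's deposited log2 fold changes was 0.72. Of the 12 markers of the 2-cell stage 4 were called higher, with a median of 0.35. Their part in the values of the mitochondrial ribosomal protein genes was not tested.

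Between LacZ control and non-injected embryos, no member was called among 78. The lowest adjusted p in the authors' deposited table was 0.149, for Mrps35. Of all tested genes, 0.263% were called lower and 0.529% higher. With an unadjusted p under 0.05, 8 of 77 members were lower (10.4%) and 3 higher (3.90%), beside 4.72% and 7.19% of all genes with a mean count of 10 or more. The median over members was -0.09, with 43 of 78 (55.1%) below 0, beside 0.00 and 48.3% over all genes with a p-value. Its sign turned when members with exon overlap were left out: the other 45 had a median of 0.01, with 22 (48.9%) below 0. Of the 12 markers of the 2-cell stage, Tcstv1 and Tcstv3 were called higher in LacZ control, and none of the 10 oocyte markers was; their part in these values was not tested. The 95% interval lay within 1 of 0 for 59 members.

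Mrps35 had the lowest log2 fold change in the authors' deposited table, -1.13 ± 0.36, a level 0.458 times that of non-injected embryos. Mrpl11 had the highest there, 1.02 ± 0.36, or 2.03 times (adjusted p = 0.342, authors' deposited table). Mrpl4 had -0.68 ± 0.24 (adjusted p = 0.245) and Mrps18b -0.72 ± 0.26 (adjusted p = 0.286) in the authors' deposited table. Mrpl20 had -0.59 ± 0.23 (adjusted p = 0.340) and Mrpl12 -0.57 ± 0.24 (adjusted p = 0.447) in the authors' deposited table. These 4 genes are among the 6 that fell for knockdown over non-injected, a comparison that uses the same non-injected libraries. Mrpl24, which sits where the exit tunnel opens, had 0.59 ± 0.24 (adjusted p = 0.408) per the authors' deposited table. Mrps23 had 0.59 ± 0.26 (adjusted p = 0.523), and the bacterial-family proteins Mrpl19 and Mrpl28 had -0.65 ± 0.31 and -0.62 ± 0.30 (adjusted p = 0.581 and 0.622) in the authors' deposited table.

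In the deposited tables the log2 fold change of knockdown over non-injected is the sum of the other 2 values, so each of the 6 falls can be read as 2 steps that share the LacZ libraries. For Mrps6 the value for knockdown over LacZ control made up 73.7% of the difference in the authors' deposited table, -0.77 against -0.28 ± 0.24 for LacZ control over non-injected. For Mrpl34 it held 48.0% and for Mrpl20 42.1%: Mrpl20 had -0.43 for knockdown over LacZ control and -0.59 ± 0.23 for LacZ control over non-injected in the authors' deposited table. For Mrpl12 and Mrps18b it held 26.7% and 15.4%. Mrpl4 had 0.01 ± 0.23 for knockdown over LacZ control (adjusted p = 0.985) per the authors' deposited table. By the point estimates its whole difference lay between LacZ control and non-injected embryos, but the 95% interval of the 0.01 was -0.43 to 0.45. No step of any of the 6 genes was itself called, and whether the shares differ between genes was not tested.

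Mrps35 and Mrpl11 showed another arrangement. Their steps had opposite signs, and their values for knockdown over non-injected were -0.06 ± 0.35 and -0.01 ± 0.36 (adjusted p = 0.899 and 0.946) per the authors' deposited table. The estimates put the LacZ control level of Mrps35 below and that of Mrpl11 above both other groups, but none of these 4 differences was called, and the mean counts were 27.9 and 17.4. Since 1 group enters both steps, the opposite signs are not 2 separate observations.

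**Figure D3:**
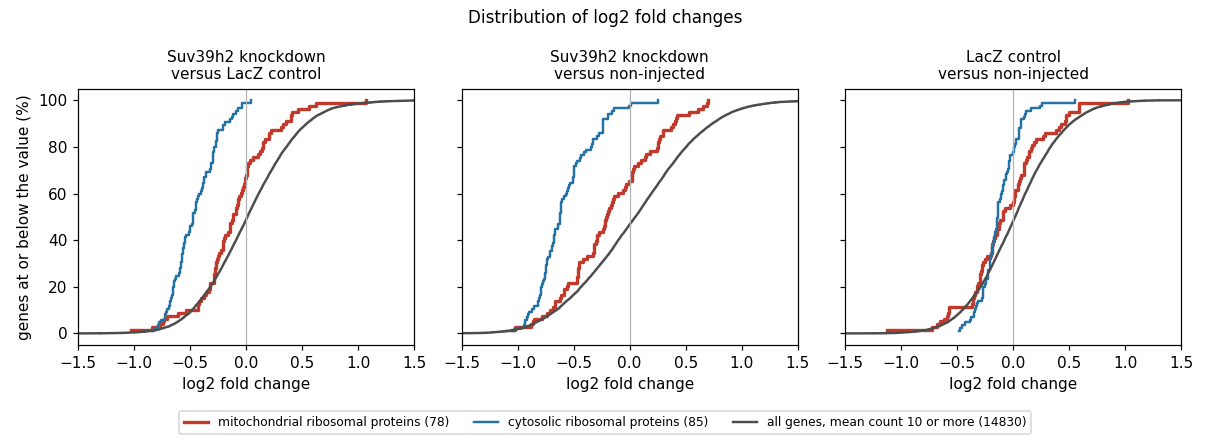
Share of genes at or below each log2 fold change (x axis) in the 3 comparisons, for the 78 mitochondrial and 85 cytosolic ribosomal protein genes and for 14830 genes with a mean count of 10 or more. The mitochondrial genes have medians of -0.12, -0.21 and -0.09 from left to right, between the cytosolic genes (-0.47, -0.62 and -0.14) and all genes (0.01, 0.05 and 0.02).

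Members were then described by place in the ribosome. By the structure of the mammalian ribosome 26 belong to the small and 51 to the large subunit; Mrps30 and Mrps18a are counted in the large one despite their names, and Mrps36 is set apart as a component of 2-oxoglutarate dehydrogenase. For knockdown over non-injected the median log2 fold change was -0.13 in the small subunit (2 of 26 fell) and -0.23 in the large one (4 of 50 with an adjusted p fell). For knockdown over LacZ control the medians were -0.05 and -0.14, and for LacZ control over non-injected -0.10 and -0.09. The -0.05 of the small subunit is above the -0.08 of all genes with a mean count of 100 or more, so its sign turns when values are centred on those genes. Mrps36 had -0.67 for knockdown over non-injected in the authors' deposited table and was not called.

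The 46 proteins of bacterial families had a median log2 fold change of -0.19 for knockdown over non-injected, with 6 falling, and the 31 mitochondria-specific ones -0.23, with 0 of 30 called. The medians were thus close although the calls lay in the first class; the difference in calls was not tested. In the first class 13.0% fell, beside 7.76% of all tested genes and 13.5% of all genes with a mean count of 100 or more. Members with a mean count of 100 or more had a median of -0.24 and held all 6 falls, that is 6 of 50, a share below the 13.5% of all genes at that level. Members under 100 had a median of -0.03.

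Single sites held genes whose estimates differed in sign, but at the sites below only Mrpl12 and Mrpl4 were called. Differences within a site were not tested. At the stalk and its base, Mrpl12 fell, while Mrpl10, its anchor, had 0.42 ± 0.19 for knockdown over non-injected in the authors' deposited table, and Mrpl11 was near 0. Along the exit tunnel 7 genes had a median of -0.24 and ran from -0.68 (Mrpl39) to 0.53 (Mrpl24), with Mrpl4 the 1 that fell. Around the peptidyl transferase centre, where amino acids are joined, 4 genes had a median of -0.01. At the central protuberance mitochondrial ribosomes hold a transfer RNA or similar small RNA. The 6 genes assigned to it here had a median of -0.33 and 0 calls. Mrps30 (-0.38) was counted among them and Mrpl58 (-0.86 for knockdown over non-injected, not called) was not, so the median depends on this assignment. At the messenger RNA entry Mrps24 had -0.62 and Mrps5 had 0.69, and neither was called.

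The 3 S18 relatives occupy different places in the ribosome. For knockdown over non-injected, Mrps18b fell, whereas Mrps18c had -0.46 ± 0.31 (adjusted p = 0.408) and Mrps18a 0.10 ± 0.33 (adjusted p = 0.825) in the authors' deposited table. Their levels were 143, 79.8 and 46.7 counts per kilobase for Mrps18b, Mrps18c and Mrps18a. The SEs are wide enough that the 3 values overlap within their 95% intervals, and the difference between the genes was not tested.

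Other genes of the pathway were counted in the same way for knockdown over non-injected, where 7.76% of all tested genes were called lower and 7.41% higher. Of 5 further ribosome proteins without an Mrp symbol none was called (3 were lower and 1 was higher when p was left unadjusted, at 0.05); Dap3, a GTP-binding protein of the small subunit, came closest at 0.59 ± 0.23 (adjusted p = 0.0543) per the authors' deposited table. Of 27 assembly and ribosomal RNA modification factors, 1 fell and 1 rose. Trub2, a pseudouridine synthase, fell by 0.71 ± 0.22 (adjusted p = 0.0150) per the authors' deposited table, and Nsun4, a methyltransferase that also works in subunit assembly, rose by 0.72 ± 0.20 there (adjusted p = 0.00762, authors' deposited table). None of 14 mitochondrial translation factors was called (0 were lower and 1 was higher with p left unadjusted, at 0.05), and their median was 0.15.

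Among 19 mitochondrial aminoacyl-tRNA synthetases, which charge transfer RNAs, 2 fell (10.5%, beside 7.76% of all tested genes) and 1 rose (beside 7.41%). Yars2 fell by 1.17 ± 0.39 (adjusted p = 0.0216) and Sars2 by 0.95 ± 0.33 (adjusted p = 0.0458), while Vars2 rose by 1.21 ± 0.34 (adjusted p = 0.00895) in the authors' deposited table. Of 12 genes for transcription and replication of mitochondrial DNA 2 fell (16.7%). Polrmt, the mitochondrial RNA polymerase, fell by 0.89 ± 0.31 (adjusted p = 0.0370), and Tfb2m, its initiation factor, by 0.64 ± 0.20 (adjusted p = 0.0191) in the authors' deposited table.

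Among 11 nuclear regulators of mitochondrial genes with an adjusted p, 4 fell (36.4%) and 1 rose for knockdown over non-injected. The shares over all tested genes were 7.76% lower and 7.41% higher, and over genes with a mean count of 100 or more 13.5% lower. No list was tested against these shares. Gabpa and Gabpb2, subunits of the ETS factor GABP, fell by 0.90 ± 0.21 and 0.90 ± 0.18 (adjusted p = 0.00172 and 0.000162) in the authors' deposited table. Pprc1, a coactivator, fell by 0.84 ± 0.26 (adjusted p = 0.0161) and Myc, a growth-linked transcription factor, by 1.16 ± 0.36 (adjusted p = 0.0241) in the authors' deposited table. Max, the partner of Myc, rose by 1.18 ± 0.26 (adjusted p = 0.000741) per the authors' deposited table. Nrf1 had -0.57 ± 0.25 (adjusted p = 0.0917) and Yy1 -0.59 ± 0.31 (adjusted p = 0.195) in the authors' deposited table. None of these 6 lists held a call in the other 2 comparisons. At an unadjusted p under 0.05 they had 0 to 3 lower and 0 to 1 higher members each for knockdown over LacZ control, and 0 to 3 lower and 0 to 2 higher for LacZ control over non-injected. All 15 mitochondrially encoded genes, both ribosomal RNAs included, are listed at 0, so the RNA part of this ribosome was not analysed here.

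The cytosolic ribosome and oxidative phosphorylation were set beside the mitochondrial ribosome as the most similar lists. For knockdown over LacZ control, cytosolic ribosomal protein genes had a median log2 fold change of -0.47 with 4 of 85 falling (4.71%). For knockdown over non-injected the median was -0.62 with 40 falling (47.1%). The shares of all tested genes called lower in these 2 comparisons were 0.533% and 7.76%. Over genes with a mean count of 100 or more they were 0.958% and 13.5%. Oxidative phosphorylation genes had a median of -0.17 with no call for knockdown over LacZ control (11 lower and 0 higher with p left unadjusted). For knockdown over non-injected their median was -0.13, with 6 falling (7.59%, near the share of all tested genes) and 1 rising. For LacZ control over non-injected the medians were -0.14 for the cytosolic ribosome and 0.04 for oxidative phosphorylation. In both knockdown comparisons the medians of the mitochondrial ribosomal protein genes lay nearer those of oxidative phosphorylation, and for LacZ control over non-injected nearer that of the cytosolic ribosome. The differences between lists were not tested.

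**Figure D4:**
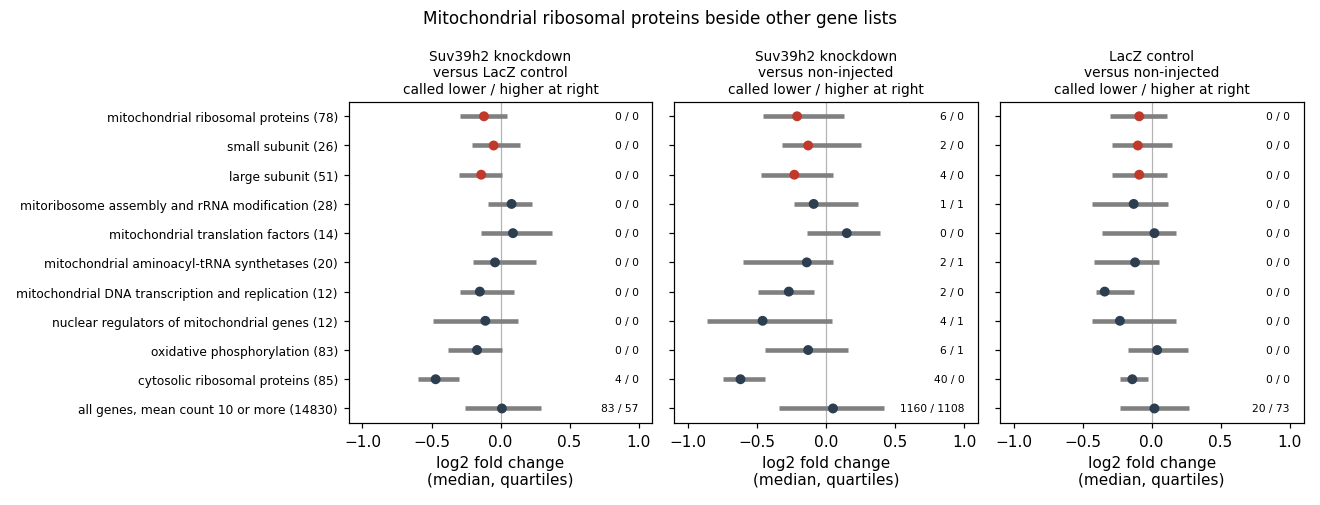
Median (point) and quartiles (bar) of the log2 fold changes in each gene list and comparison, with the counts called lower and higher at the right edge of each panel. The mitochondrial ribosomal protein genes (red) lie near 0 with 6 lower calls in the middle panel, where the cytosolic ribosomal protein genes have 40; the bottom row counts calls among genes with a mean count of 10 or more.

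The 78 genes lie on 17 chromosomes, with 11 on chromosome 11 and 8 on chromosome 17. Exons of 33 members overlap those of another gene, over 88.0% of their bases for Mrpl53 (with Gm42688), 69.8% for Mrps25 (with Nr2c2) and 63.4% for Mrps34 (with Mapk8ip3), so counts of these genes are uncertain. Of the 78, 18 (23.1%) start within 1 kb of a protein-coding gene on the opposite strand that runs the other way, beside 1491 of 22028 protein-coding genes (6.77%). These 18 had a median log2 fold change of -0.29 for knockdown over non-injected and the other 60 one of -0.19. Apart from Helq and Ppp1r10, the partners named next were picked for being called in a knockdown comparison. Most partners were not called, and some had the opposite sign. Helq had 0.41 ± 0.22 (adjusted p = 0.201) beside -0.46 ± 0.31 for Mrps18c against non-injected embryos in the authors' deposited table. Whether neighbours change together was not tested. Mrpl49 starts 59 bases from Fau, a cytosolic ribosomal protein gene that fell by 0.79 ± 0.21 for knockdown over LacZ control (adjusted p = 0.0350) per the authors' deposited table. Mrps12 starts 172 bases from Sars2, which fell against non-injected embryos as given above, while Mrps12 itself had -0.29 in the authors' deposited table and was not called. Mrpl40 starts 175 bases from Hira, a histone chaperone gene that fell by 0.86 ± 0.25 against non-injected embryos (adjusted p = 0.00820) per the authors' deposited table, beside -0.45 ± 0.21 for Mrpl40 (adjusted p = 0.139). Mrpl32 starts 75 bases from Psma2, a proteasome subunit gene that fell by 0.72 ± 0.24 against non-injected embryos (adjusted p = 0.0249), beside -0.17 ± 0.21 for Mrpl32 (adjusted p = 0.629), both per the authors' deposited table. Mrpl30 starts 66 bases from Mitd1, which rose by 0.90 ± 0.30 (adjusted p = 0.0213), beside 0.61 ± 0.30 for Mrpl30 (adjusted p = 0.158), both per the authors' deposited table. Mrps18b, the 1 gene among the 6 with such a neighbour, starts 45 bases from Ppp1r10, which had -0.01 ± 0.31 in the authors' deposited table.

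Promoters of 69 members were taken from RefSeq (build GRCm38.p6), as 250 bases before and 50 after the start, and searched on both strands for short words tied to regulators of mitochondrial genes. The word CCGGAAG of ETS factors occurred in 26 of 69 (37.7%), beside 12.9% of 17491 protein-coding promoters. The word GCGCATGCG of NRF1 occurred in 7 (10.1%, beside 2.61%), and AAGATGGC of YY1 in 12 (17.4%, beside 3.57%). At least 1 of these 3 words, none of which contains another, was in 38 promoters (55.1%, beside 17.7%), and TCTCGCGAG was in 1 (1.45%, beside 1.08%). A word marks letters only and is no evidence of binding.

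Sequences of 100 bases upstream of 5 of the 6 genes that fell are shown to let these promoters be compared, with that of Mrpl22, which did not pass the test and holds both an ETS and an NRF1 word. Letters run 5′ to 3′ on the gene's strand, each stretch ends before the earlier of the RefSeq and GENCODE starts, and capitals mark the ETS and NRF1 words. Mrpl4 had no entry.
Mrps6 (chr16:92058170-92058269, plus strand): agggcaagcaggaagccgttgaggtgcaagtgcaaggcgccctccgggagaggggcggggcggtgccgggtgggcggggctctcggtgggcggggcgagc
Mrpl20 (chr4:155802778-155802877, plus strand): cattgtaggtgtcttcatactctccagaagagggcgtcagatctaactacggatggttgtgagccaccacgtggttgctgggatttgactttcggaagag
Mrps18b (chr17:35916441-35916540, minus strand): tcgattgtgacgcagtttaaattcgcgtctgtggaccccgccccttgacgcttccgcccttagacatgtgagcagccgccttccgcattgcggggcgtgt
Mrpl12 (chr11:120484513-120484612, plus strand): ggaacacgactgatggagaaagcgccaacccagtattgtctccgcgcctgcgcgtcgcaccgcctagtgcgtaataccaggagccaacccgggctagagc
Mrpl34 (chr8:71464826-71464925, plus strand): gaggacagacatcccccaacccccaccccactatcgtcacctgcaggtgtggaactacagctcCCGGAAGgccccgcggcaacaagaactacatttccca
Mrpl22 (chr11:58171561-58171660, plus strand): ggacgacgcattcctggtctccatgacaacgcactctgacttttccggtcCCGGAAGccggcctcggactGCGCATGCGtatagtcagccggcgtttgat

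Of these stretches, those of Mrpl34 and Mrpl22 hold a word, and those of Mrps6, Mrpl20, Mrps18b and Mrpl12 hold none. In the whole 300-base window Mrps18b has an NRF1 word farther upstream and an ETS word after the start. The 38 members with at least 1 of the 3 words had a median log2 fold change of -0.19 for knockdown over non-injected, and the 31 without had -0.16. Of the 5 genes that fell and have an entry, 2 carry such a word, Mrps18b and Mrpl34.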

How the data were processed

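RNA of 16 libraries was compared by the authors in 3 gene tables, 1 for each pair of groups. The submitters' processing notes name the build GRCm38.p5 and the tools STAR 2.5.2b (alignment), SAMtools, HTSeq 0.9.1 (counting) and DESeq2 1.18.1 (testing). Removal of unwanted variation (RUVseq) and shrinkage of fold changes appear in the tables' names alone. Shrinkage pulls fold changes of weakly detected genes towards 0. Per the file headers, each deposited table holds a mean normalized count, which is a signal scaled for library size. The log2 fold change, its standard error and the Wald statistic, a score, follow per the file headers. Per the file headers, the last columns are the deposited p-value and its adjusted form, empty for genes the authors filtered out; the deposited values were matched by Benjamini-Hochberg adjustment over the rest to within 1.84e-05. The mean counts are the same in all 3 tables, so values share 1 normalization. The sign was read as the first-named group over the second, since Suv39h2 is then lower in knockdown.

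With no values of single libraries (0 such columns), no sample check, refit or left-out library could be computed, and depth and its precision are unknown. Identifiers were matched to GENCODE mouse release 21 (49326 of 49585, 99.5%), which also gave positions, transcript lengths and exon overlaps. Medians, counts and 95% normal intervals were computed with Python 3.11.15, pandas 2.3.3 and numpy 2.4.6, and the adjustment was tested on simulated data. The genes, lists, roles and tests were chosen with earlier results of these data known. Named genes were those called, the 10 smallest p-values and 3 most extreme fold changes on either side in each comparison, the 5 highest and lowest levels, the S18 relatives, and called genes of the other lists; members next to a shared promoter or at a named site were added for description after their values were seen. Deposited tables of repeat elements were not used here. Alternatives changed the genes entering the adjustment, the threshold, the centring and the members kept.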

Additional observations from a re-analysis of the deposited data

How the results depend on the processing

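Called members depended on the adjustment and the threshold. For Suv39h2 knockdown versus LacZ control the count was 0 with the deposited adjustment, 1 with adjustment over genes with a mean count of 100 or more, 1 with adjustment over protein-coding genes with a mean count of 10 or more, and 3 at an adjusted p under 0.1 (Mrps6 and Mrpl50 lower, Mrps35 higher). The 1 gene called with the mean count limit was Mrps6. For Suv39h2 knockdown versus non-injected the count of 6 became 14 at an adjusted p under 0.1 (11 lower, 3 higher) and 2 under 0.01. It was 4 with adjustment over every p-value, which left out Mrpl4 (adjusted p = 0.0749) and Mrpl34 (0.0667), and 8 with either restricted adjustment; with the mean count limit the 6 were joined by Mrpl17, lower, and Mrps23, higher. LacZ control versus non-injected had 0 calls under each of these settings.

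Subtracting the median of genes with a mean count of 100 or more, which was -0.08, -0.08 and 0.00 in the order above, gave members' medians of -0.04, -0.12 and -0.09. No p-value was recomputed for centred values, so they bear on no call. Members without exon overlap had medians of -0.14, -0.16 and 0.01, so the sign turned in LacZ control versus non-injected. No paired analysis was possible because the tables hold no value of a single library, and leaving out libraries was not run for the same reason. Depth is unknown. Genes with low mean counts, such as Mrps35, Mrpl11 and Mrps5, have wide errors.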
